A study of Bubalus bubalis with 6 samples.

Results

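Genes of the PAX-SIX-EYA-DACH network of transcription factors were examined in polyA-selected RNA-seq of buffalo muscle stem cells (MuSCs). The set was defined by 8 gene symbols: SIX2, SIX4 and SIX5 of the sine oculis homeobox family, EYA1, EYA2, EYA3 and EYA4 of the EYA family, and DACH1. Of the 24616 genes in the deposited table, 6 carried one of these symbols, and all 6 had at least 10 counts in total and were tested. SIX4 and DACH1 were not matched by symbol and were not analysed here.

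The cells were primary MuSCs isolated by enzyme digestion from the longissimus muscle of buffalo (Bubalus bubalis) fetuses. No transgene or drug treatment is described for these samples. The 3 GM samples were proliferating cells in growth medium, that is, high-glucose DMEM with fetal bovine serum, penicillin and streptomycin. The 3 DM samples were cells moved near confluence to differentiation medium, DMEM with a low share of horse serum, in which MuSCs fuse into myotubes. The labels give no time in DM, donor or batch and do not say whether each sample was a separate culture, so the p-values below measure only the spread between these samples, which may be technical.

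The sine oculis proteins are homeodomain transcription factors that bind the MEF3 element found in the control regions of muscle genes such as MYOG. They activate poorly alone and recruit EYA proteins, coactivators that also carry a phosphatase domain, whereas DACH proteins act mainly as corepressors in the same complexes. Together with PAX genes these families form a network that sets up the muscle lineage in the embryo and takes part in regeneration and in the choice of fibre type.

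Each sample held between 35615864 and 40305237 counts on genes. In some of the marker sums below, DM replicate 3 (DM3) lay apart from DM1 and DM2. Whether it differed as a whole sample was not tested. The summed level of 7 listed myotube markers was 375 to 765 CPM (counts scaled to TMM library sizes) in GM samples and 4362 to 6168 CPM in DM samples, with all 7 called higher. The summed level of 9 listed MuSC and myoblast markers was 3183 to 3425 CPM in GM samples and 2354 to 2860 CPM in DM samples, with 1 called higher and 3 lower. Most of this sum was DES, at 2190 to 2389 CPM in GM and 1787 to 2411 CPM in DM samples, which was not called. The 10 fibroblast markers summed to 35361 to 36113 CPM in GM samples and 97693 to 123649 CPM in DM samples, and 7 of the 9 tested were called higher. Most of this sum was the collagens COL1A1, COL1A2 and COL3A1, with means of 15288, 10730 and 8299 CPM in GM samples. Their means in DM samples were 44329, 23421 and 39253 CPM. DCN, LUM, THY1 and FAP were also called higher, while PDGFRA and OSR1 (log2 fold changes 0.58 and 0.52) were not called. The other lists were lower in level: endothelial markers summed to 13.6 to 15.7 CPM in GM and 14.1 to 24.3 CPM in DM samples, haematopoietic markers to 5.56 to 6.99 and 2.95 to 4.09 CPM, adipocyte markers to 2.53 to 3.80 and 7.19 to 8.49 CPM, and Schwann cell and neuron markers to 48.2 to 50.4 and 30.6 to 41.6 CPM. Of these, 1 of 8 tested endothelial markers was called higher and 3 lower, 1 of 5 haematopoietic markers lower, 2 of 6 adipocyte markers higher, and 2 of 5 Schwann cell and neuron markers higher and 1 lower. Pericyte and smooth muscle markers summed to 3467 to 3804 CPM in GM and 3313 to 4146 CPM in DM samples, mostly from DES, also a MuSC marker here, and ACTA2. In that list 2 of 8 were called, both higher: KCNJ8 rose from 0.277 ± 0.131 to 13.8 ± 4.41 CPM and ABCC9 from 2.01 ± 0.314 to 48.6 ± 7.63 CPM (adjusted p = 2.3e-07 and 5.79e-09 in edgeR). Of the 8 markers, 5 had a positive and 3 a negative log2 fold change, with a median of 0.31. Over all tested genes, 15.0% were called higher and 10.3% lower by the rule given below. No listed marker was at 0 in all samples. The part of these shifts in markers in the results below was not tested.

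SIX2 and EYA4 rose in DM samples, each by more than 3-fold, while EYA3 lay within 0.1 of no change on the log2 scale. SIX5, EYA1 and EYA2 lay between, each less than 1.5-fold higher in DM samples. A gene was called at an adjusted p under 0.05 in edgeR's quasi-likelihood test together with a log2 fold change beyond 1 in either direction. By this rule 2 of the 6 members were called, and 25.3% of all 15576 tested genes were. Both were called higher, as were 15.0% of all tested genes, and none was called lower, as were 10.3% of them. No member was lower in DM samples at an unadjusted p under 0.05 in edgeR, and DESeq2 called none lower. Without the minimum fold change 4 of the 6 members passed, all 4 higher in DM samples, beside 63.0% of all tested genes in either direction and 31.6% higher. In CPM, 4 of the 6 members had no overlap between the groups, as did 68.8% of all tested genes. The median log2 fold change of the 6 members was 0.41, and that of all tested genes was 0.03. In such bulk samples, a change in the number of cells of a type and a change in RNA per cell cannot be told apart.

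**Figure D1:**
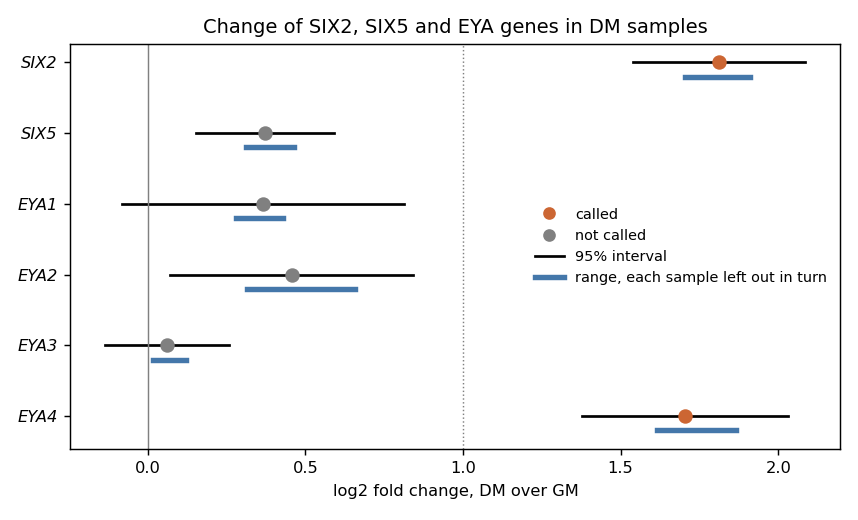
Log2 fold change (DM over GM) of the 6 members, with 95% confidence intervals from edgeR's quasi-likelihood fit over 3 GM and 3 DM samples. SIX2 at 1.81 and EYA4 at 1.70 lie beyond 1, the threshold for a call, and the other points lie between 0.06 and 0.46; the blue bar under each point spans the fits with 1 sample left out.

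SIX2, a homeobox factor known for keeping kidney progenitors undifferentiated and expressed in connective tissue and tendon, rose 3.51-fold. The gene (ENSBTAG00000004159) is listed on the minus strand of cattle chromosome 11 from 27260475 to 27263699, with a listed length of 1068 bases. Its counts were 249, 335 and 278 in GM1, GM2 and GM3 and 790, 893 and 1013 in DM1, DM2 and DM3. Every DM sample held more than 2 times the counts of any GM sample, and DM3 was the highest. Scaled by gene length and by the summed counts of the sample, its RPKM was 6.90 ± 0.991 (SD, n = 3) in GM samples and 22.7 ± 2.05 in DM samples. The log2 fold change was 1.81 (SE 0.12, 95% interval 1.54 to 2.09), with an adjusted p of 4.42e-07 in edgeR. Fits without 1 sample gave 1.70 to 1.91. In a test against a 2-fold change the adjusted p was 6.82e-05. In absolute size this change lay at the 86.5 percentile of all tested genes.

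SIX5, which lies beside the myotonic dystrophy gene DMPK and is widely expressed, was 1.29-fold higher in DM samples. It (ENSBTAG00000013346) is listed on the minus strand of chromosome 18 from 53755489 to 53759029. Counts were 619, 761 and 594 in the GM samples and 695, 817 and 752 in the DM samples. The raw counts of the groups overlap, but the RPKM values do not, being 6.67, 8.13 and 6.98 in GM and 8.40, 9.45 and 8.48 in DM samples. The log2 fold change was 0.37 (SE 0.099, 95% interval 0.15 to 0.59), with an adjusted p of 0.00735 in edgeR, under the fold needed for a call. With each sample left out in turn it lay between 0.31 and 0.46, and the adjusted p between 0.00094 and 0.0386. SIX3 and SIX6, relatives outside the set known for the eye and forebrain, held 1 count each over the 6 samples and were not tested.

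EYA4, a coactivator whose mutation causes deafness and cardiomyopathy in people, was the EYA gene called, and rose 3.26-fold. It (ENSBTAG00000021970) is listed on the plus strand of chromosome 9 from 72661136 to 72736460, with a length of 2115 bases. Counts were 412, 341 and 380 in GM samples and 1156, 1236 and 879 in DM samples. The groups do not overlap, and DM3 was the lowest of the DM samples. RPKM was 4.59 ± 0.512 in GM and 14.0 ± 2.68 in DM samples. The log2 fold change was 1.70 (SE 0.15, 95% interval 1.38 to 2.03), with an adjusted p of 2.6e-06 in edgeR. Leaving out each sample in turn gave 1.62 to 1.87, the highest of these without DM3. The adjusted p against a 2-fold change was 0.000696.

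EYA2, a coactivator expressed in muscle precursors, was higher than in every GM sample in 2 of the 3 DM samples. It (ENSBTAG00000013336) is listed on the plus strand of chromosome 13 from 76311439 to 76487993. Counts were 391, 439 and 358 in GM samples and 492, 594 and 355 in DM samples. By counts DM3 lay just below the GM samples, and DM1 and DM2 lay above them. In CPM, the scale of the fit, DM3 at 9.59 lay within the GM samples at 9.43, 10.6 and 9.44. As RPKM the level was 4.39 ± 0.280 in GM and 5.63 ± 1.47 in DM samples. The log2 fold change was 0.46 (SE 0.17, 95% interval 0.07 to 0.84), with an adjusted p of 0.0406 in edgeR. Without DM3 it was 0.66 (SE 0.11), with an adjusted p of 1.07e-05. Without any other sample it was 0.31 to 0.51 and no longer passed, with adjusted p from 0.0664 (without GM2) to 0.151 (without DM2). With scaling by library size alone the log2 fold change of EYA2 was 0.36 and did not pass (adjusted p = 0.0984 in edgeR).

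EYA1, mutated in branchio-oto-renal syndrome and needed with EYA2 for early muscle in the embryo, was the member with the fewest counts. It (ENSBTAG00000011298) is listed on the minus strand of chromosome 14 from 36898122 to 37268909. Counts were 93, 98 and 72 in GM samples and 103, 101 and 95 in DM samples. RPKM was 1.15, 1.20 and 0.970 in GM and 1.43, 1.34 and 1.23 in DM samples. The groups do not overlap in RPKM, but the step between the highest GM and the lowest DM sample is narrow. The log2 fold change of 0.36 (SE 0.20) did not pass the test (adjusted p = 0.139 in edgeR), and its 95% interval runs from -0.08 to 0.81, that is, up to 1.76-fold.

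EYA3, the most widely expressed EYA gene, did not pass either. It (ENSBTAG00000043989) is listed on the plus strand of chromosome 2 from 125899852 to 125969668. Counts were 722, 703 and 670 in GM samples and 567, 661 and 717 in DM samples. RPKM was 8.88 ± 0.214 and 8.66 ± 0.718, and the groups overlap. The log2 fold change was 0.06 (SE 0.088, 95% interval -0.13 to 0.26, adjusted p = 0.567 in edgeR), and its sign turned to -0.036 with scaling by library size alone.

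**Figure D2:**
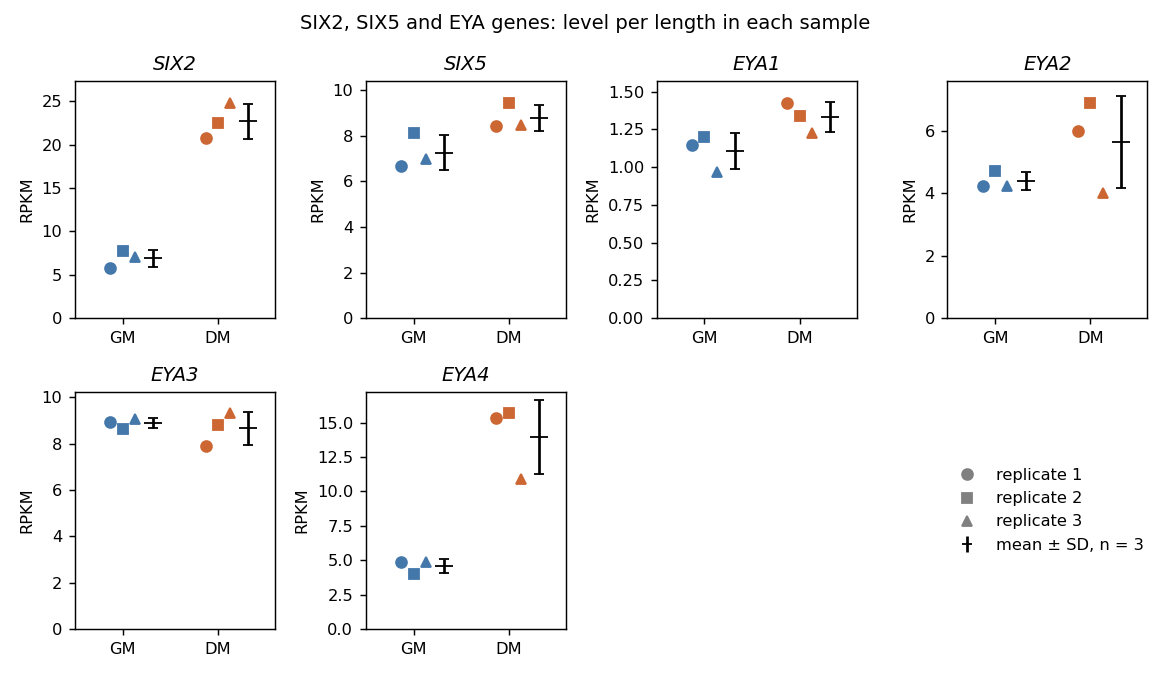
RPKM of each tested member in each of the 3 GM and 3 DM samples, with the group mean ± SD (n = 3) beside the points. SIX2 and EYA4 separate by the widest gaps, while EYA2 in DM3 (4.02 RPKM) lies below all 3 GM samples on this scale, though not in CPM.

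Each of these genes had 1 listed mRNA transcript that held the counts of its gene, so the transcript table carries the same reads in another fit. Of the 6 member transcripts, 2 were called, those of SIX2 (log2 fold change 1.79, adjusted p = 3.44e-07 in edgeR) and EYA4 (1.69, adjusted p = 2.11e-06), beside 25.6% of 16352 tested mRNAs. No comparison between transcript forms of one gene could be made.

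Compared per length, the order of the genes differed between the groups. In GM samples EYA3 had the highest mean of the members at 8.88 RPKM, followed by SIX5, SIX2, EYA4, EYA2 and EYA1 at 1.11 RPKM. The ranges of SIX5 and SIX2, and those of EYA4 and EYA2, overlapped, while the other neighbours in this order lay apart. In DM samples SIX2 was highest at 22.7 RPKM, followed by EYA4, SIX5, EYA3, EYA2 and EYA1 at 1.33 RPKM. Of these, SIX5 and EYA3 overlapped. SIX2 thus stood beside SIX5 in GM samples and above all other members in DM samples. These orders rest on the listed lengths, from 1068 bases for SIX2 to 2322 for SIX5, which enter each level but not the comparison of a gene between groups.

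The shares of the members in summed levels differed between the groups. EYA4 made up 25.4, 21.6 and 25.6% of the summed RPKM of the 4 EYA genes in the GM samples and 50.1, 48.0 and 42.8% in the DM samples. EYA3, the leading EYA gene in GM samples at 46.8 ± 0.401% (SD, n = 3), made up 29.7 ± 5.95% in DM samples. The share of EYA2 was 23.2 ± 1.93% and 18.8 ± 2.71%, and that of EYA1 was 5.84 ± 0.714% and 4.53 ± 0.386%. Of the sum of SIX2 and SIX5, SIX2 made up 48.7 ± 1.90% in GM and 72.0 ± 2.21% in DM samples. For all 6 shares the exact two-sided permutation test gave p = 0.1, the smallest that 3 samples against 3 allow (adjusted p = 0.1), so the design cannot reach 0.05. Shares of the same sum are not independent, and those of SIX2 and SIX5 are the same comparison. EYA1 and EYA2 lost share although their log2 fold changes were positive (0.36 and 0.46).

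**Figure D3:**
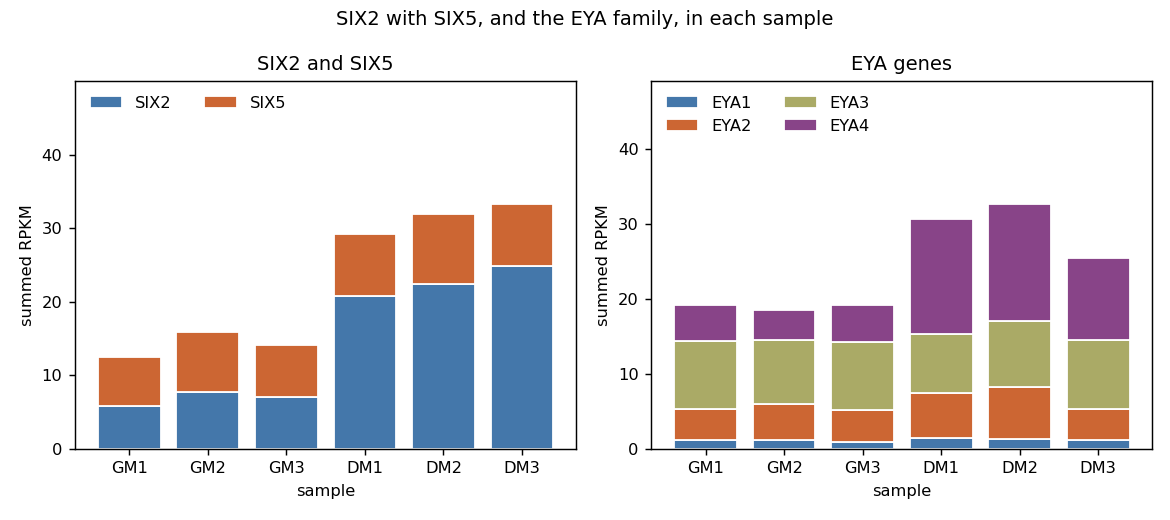
Stacked RPKM of SIX2 and SIX5 and of EYA1 to EYA4 in each of the 6 samples, 1 bar per sample. The EYA4 segment takes 21.6 to 25.6% of each GM bar and 42.8 to 50.1% of each DM bar, and the SIX2 segment a mean of 48.7% and 72.0%.

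The summed levels were higher in DM samples as well. The 4 EYA genes summed to 19.2, 18.6 and 19.2 RPKM in GM and to 30.6, 32.7 and 25.4 RPKM in DM samples, a mean 1.56-fold higher. SIX2 and SIX5 summed to 12.5, 15.9 and 14.1 RPKM in GM and to 29.2, 31.9 and 33.3 RPKM in DM samples, 2.22-fold higher. RPKM carries no TMM scaling, so these folds are not on the scale of the fitted fold changes above. The groups do not overlap in either sum (exact two-sided permutation p = 0.1 for each, the smallest possible).

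Ratios within a sample were used to ask whether members of a family changed by different amounts, over 7 pairs. The log2 ratio of SIX2 to SIX5 was 1.45 higher in DM than in GM samples. EYA4 gained on every other EYA gene: the log2 ratio to EYA4 fell by 1.63 for EYA3, by 1.27 for EYA2 and by 1.32 for EYA1. These 4 differences separate all samples of the groups, with an exact two-sided permutation p of 0.1 each, the smallest possible, and an adjusted p of 0.175. The other pairs overlap. EYA1 moved by -0.05 relative to EYA2 (exact permutation p = 0.9) and by 0.31 relative to EYA3 (exact permutation p = 0.2), and EYA2 by 0.37 relative to EYA3 (exact permutation p = 0.4). With 1 sample left out, EYA2 over EYA3 ranged from 0.21 (without DM2) to 0.64 (without DM3), with 0.24 without DM1, and EYA1 over EYA3 from 0.19 (without DM1) to 0.42 (without DM3), with 0.20 without GM3.

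None of the members overlaps another listed gene, and the nearest tested genes on either side did not all move as the member did. Next to SIX5, at 1660 bases and on the same strand, DMPK, a kinase gene of muscle, rose from 78.7 ± 6.24 to 187 ± 10.9 CPM (log2 fold change 1.25, SE 0.076, adjusted p = 2.03e-07 in edgeR), past the threshold that SIX5 missed. On the other side of SIX5, MYPOP had a log2 fold change of 0.39 (adjusted p = 0.0597 in edgeR). Whether these 2 genes differ from SIX5 was not tested. The neighbours of SIX2, CAMKMT and SRBD1, were 227990 and 383468 bases away and had log2 fold changes of 0.04 and -0.42, and SRBD1 overlaps another listed gene. Those of EYA4, TBPL1 and ENSBTAG00000001360, were 374148 and 682936 bases away. They had 0.51 and 0.39 (adjusted p = 0.00202 and 0.000196 in edgeR), in the direction of EYA4 but under the fold for a call. ENSBTAG00000001360 overlaps SNORD101, SNORD100 and SNORA33. Near EYA1, LACTB2 was called higher (1.32, adjusted p = 7.35e-06 in edgeR) and MSC, the bHLH repressor musculin, had -0.71 (adjusted p = 6.35e-06). SLC2A10 and ZMYND8 beside EYA2 had 0.32 and -0.22, and ZMYND8 overlaps SNORA79. Beside EYA3, XKR8 had -0.40 (adjusted p = 0.0598 in edgeR), and PTAFR was near 0 CPM in both groups.

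The genes with profiles most like those of the called members were ranked by the Euclidean distance of log2 CPM, centred over the 6 samples, among 10815 genes. For SIX2 they were IFFO1 (distance 0.228), COL4A2, a basement membrane collagen (0.246), and CDKN2B, a CDK inhibitor (0.250). Their log2 fold changes were 1.93, 1.77 and 1.71. For EYA4 they were TNFAIP8 (0.144), N4BP2L1 (0.153) and ENPP2, which makes lysophosphatidic acid (0.162), with log2 fold changes of 1.76, 1.64 and 1.72. With 6 samples in 2 groups, any gene with a like fold change ranks near.

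Among listed cofactors of these families, the called changes were smaller than those of SIX2 and EYA4. The list holds proteins that the families bind or act on, and relatives that share a protein domain with DACH proteins. Of 18 tested genes 2 were called, both lower in DM samples, beside 25.3% of all tested genes called and 10.3% called lower. TLE2, a Groucho corepressor, went from 2.22 ± 0.267 to 0.944 ± 0.158 CPM (log2 fold change -1.23, adjusted p = 0.00147 in edgeR). H2AFX, the histone variant whose phosphotyrosine EYA proteins remove, went from 129 ± 15.3 to 51.7 ± 3.50 CPM (-1.32, adjusted p = 5.62e-07). Without the minimum fold, 13 of the 18 passed, beside 63.0% of all tested genes. Of the 18, 14 had a negative and 4 a positive log2 fold change, with a median of -0.17. Only 1 was called in a test against a 2-fold change or among genes with an RPKM of at least 1 in most samples, and 3 were called, all lower, without DM3 or with scaling by library size alone.

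The PAX genes, myogenic regulators and their partners moved in both directions. PAX factors such as PAX3 and PAX7 act upstream in the muscle network, and sine oculis and EYA proteins act on or beside the myogenic factors. Of 25 tested genes 12 were called, 8 higher and 4 lower, and the list's median was 0.17 on the log2 scale. Among all tested genes 25.3% were called, 15.0% higher and 10.3% lower. MEF2C, a partner of the myogenic bHLH factors, rose from 4.63 ± 1.32 to 75.3 ± 23.6 CPM (4.02, adjusted p = 2.49e-07 in edgeR) and MYF6 from 0.519 ± 0.0770 to 8.22 ± 0.871 CPM (3.97, adjusted p = 5.87e-08). MYOG, whose promoter carries a MEF3 element, rose from 52.9 ± 13.3 to 167 ± 15.5 CPM (1.66, adjusted p = 4.28e-06), a change close in size to those of SIX2 and EYA4. MYF5 fell from 143 ± 6.38 to 22.0 ± 3.34 CPM (-2.70, adjusted p = 1.02e-08), and MET, the receptor of migrating muscle precursors, from 121 ± 4.90 to 13.6 ± 3.59 CPM (-3.15, adjusted p = 5.61e-08). PAX3, a regulator of embryonic muscle precursors, held 4, 6 and 2 counts in GM samples and 0 in each DM sample and was called lower, at a level too low for a fold. MYOD1 (log2 fold change 0.90, adjusted p = 0.00202) and PAX7 (-0.92, adjusted p = 0.00232) passed on p but not on fold. The same held for PAX8 (0.83, adjusted p = 0.00178 in edgeR). PAX1, PAX6 and PAX9 were called higher (1.45, 2.02 and 2.42) at low levels, with means of 1.26, 0.851 and 0.769 CPM in DM samples. The groups overlapped for PAX1. Among genes with an RPKM of at least 1 in most samples, 5 of the list were called, 2 higher and 3 lower.

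Most fibre genes were higher in DM samples. Of 19 tested fast fibre genes 16 were called, all higher, beside 15.0% of all tested genes. Their list had a median log2 fold change of 4.16 (3.99 with PVALB at its bound). The remaining fast fibre genes are enzymes of sugar metabolism: ALDOA was lower in DM samples (log2 fold change -0.61, adjusted p = 0.000155 in edgeR, under the fold for a call), and PFKM (0.14) and GPD1 (0.05) did not pass. PVALB, a calcium buffer of fast fibres, had no count in GM samples and 24, 23 and 52 counts in DM samples, at least 12.3-fold higher against a floor of 3 counts per library. MYH1, a fast myosin heavy chain, had 0, 1 and 3 counts in GM and 200, 258 and 92 counts in DM samples. Of 14 slow fibre genes 13 were called, all higher, with a median of 4.01. CASQ2, the calcium store protein of slow and cardiac muscle, rose from 3.81 ± 1.90 to 128 ± 39.1 CPM (5.08, adjusted p = 4.08e-07 in edgeR). MYL3, a slow myosin light chain that overlaps PTH1R, had 1, 0 and 0 counts in GM and 41, 46 and 144 counts in DM samples. The median of each fibre list was larger than the change of any member.

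Genes of proliferation described as targets of EYA or DACH1 and their partners were mostly lower in DM samples. Of 14 tested genes 6 were called, all lower, beside 10.3% of all tested genes. SLC12A2, an ion transporter chosen here after its values were seen, lay just under the fold for a call (log2 fold change 0.99, adjusted p = 8.08e-06 in edgeR). With either of 2 stricter filters on low values, or without GM1, GM2 or DM3, 7 were called and 1 of them was higher. The list's median was -0.94 on the log2 scale, and 4 of the 14 had a positive value. VEGFC, a lymphangiogenic growth factor, fell from 121 ± 4.69 to 15.8 ± 1.97 CPM (-2.93, adjusted p = 4.39e-09 in edgeR) and CCND1, cyclin D1, from 45.3 ± 3.92 to 6.01 ± 3.25 CPM (-2.90, adjusted p = 6.47e-06). CCNA2, CCNE1, CDK2 and E2F1 were the other genes called lower.

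**Figure D4:**
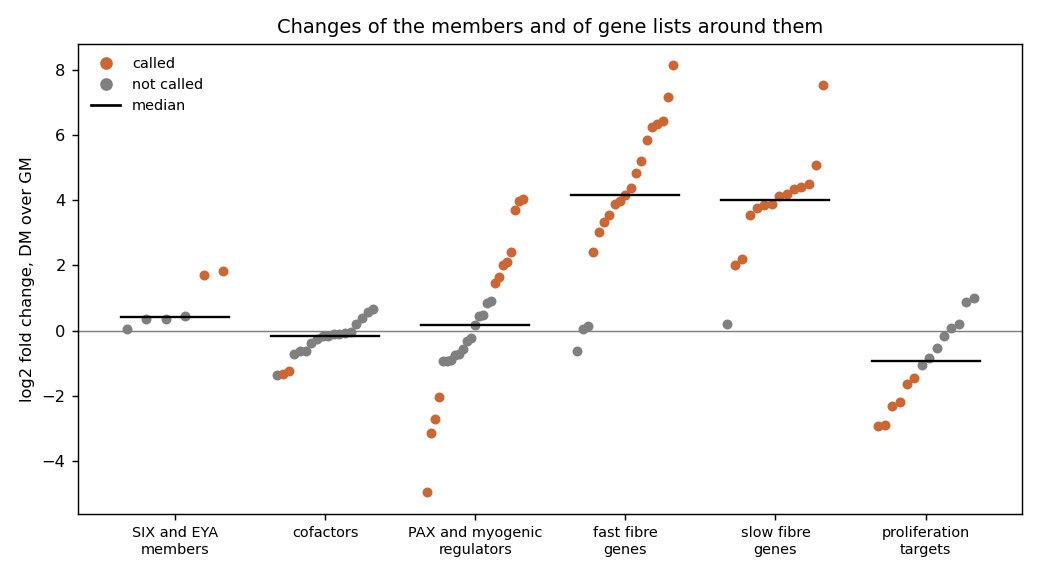
Log2 fold change (DM over GM, edgeR) of every tested gene of each list, with the members first and the list medians marked. The members have a median of 0.41 and the fast and slow fibre genes medians of 4.16 and 4.01, while points for PVALB and PAX3, each at 0 counts in 1 group, depend on the prior count.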

How the data were processed

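PolyA libraries of 3 GM and 3 DM samples of buffalo MuSCs were grouped by their labels. The authors deposited raw counts per gene and per mRNA, without normalization, beside RPKM values that they scaled by listed length and by the sample's summed counts. Their methods name HISAT2 and the buffalo genome, the submitters' processing notes name Bowtie 0.12.2 and mouse builds, and the tables list cattle Ensembl identifiers and coordinates with no build. The counting tool and strand setting are not given in the sources used here. Coordinates are as deposited.

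Genes with at least 10 counts in total were fitted in R 4.3.3 with edgeR 4.0.16 (glmQLFit, glmQLFTest, TMM) over all tested genes, with Benjamini-Hochberg adjustment. CPM use TMM library sizes. TMM factors were 1.03 to 1.04 in GM and 0.948 to 0.983 in DM samples. Profiles used log2 CPM with a prior count of 2. Shares and ratios of RPKM were compared with exact permutation tests (scipy 1.17.1, Python 3.11.15). The fit was tested on simulated data. Alternatives were DESeq2 1.42.0, other scalings and filters, fits with a replicate block, fits without 1 sample and a test of changes beyond 2-fold.

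The members and the gene lists were chosen with earlier results of these data known. The text names all members, their nearest tested neighbours, the 3 nearest profiles of called members, the called genes of a list with 4 or fewer calls and otherwise the 2 largest called changes each way, and MYOG, MYOD1, MYF5, MYF6, PAX3 and PAX7. CCNA2, CCNE1, CDK2, E2F1, SLC12A2, ALDOA, PFKM, GPD1, KCNJ8, ABCC9, DES and ACTA2 were named after their values were seen. So were the named fibroblast markers and PAX1, PAX6, PAX8 and PAX9. Promoter sequence was not analysed here, and 1 related gene is not reported here.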

Additional observations from a re-analysis of the deposited data

How the results depend on the processing

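SIX2 and EYA4 were the 2 members called, and none was called lower, under every alternative run, including DESeq2, other scalings and filters and each sample left out, and between 3 and 4 members passed on adjusted p alone. Where only 3 passed, EYA2 was the member lost. Same-numbered GM and DM samples did not deviate together (r = -0.0076, -0.022 and -0.010), no sample correlated best with its own number, and with a replicate block 2 members were called and 4 passed. Signs turned only for values near 0. With library size alone EYA3 was -0.036 and its transcript -0.11. With 1 sample left out the EYA3 transcript ranged from -0.0037 (without DM3) to 0.10. The log2 ratio of EYA1 to EYA2 changed by -0.22 to 0.10 with each sample left out, being 0.00065 without GM1 and 0.10 without DM2. Called cofactors were 1 rather than 2 with the RPKM filter and in the test against a 2-fold change, and 3 without DM3 or with library size alone, and called PAX and myogenic genes 5 rather than 12 with the RPKM filter, which tests fewer genes, and 10 to 13 with 1 sample left out (13 without DM3, 9 of them higher). EYA1 had the fewest counts of the members, 72 to 103 per sample. Whether depth decided its result was not tested.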

Other observations

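Within the DM samples, DM3 differed from DM1 and DM2 in opposite directions for some genes of this network. This comparison was made after the values were seen and with no test, since it is 1 sample. EYA4 was 34.2, 33.8 and 23.8 CPM in DM1, DM2 and DM3, EYA2 14.6, 16.2 and 9.59 CPM, MYOD1 67.2, 75.0 and 39.3 CPM, and PAX7 12.3, 10.9 and 6.11 CPM, so each was lowest in DM3. MEF2C was 56.6, 67.4 and 102 CPM and MYF6 7.40, 8.12 and 9.13 CPM, highest in DM3. SIX2 counts were also highest in DM3, at 1013. By contrast, MYOG at 161, 185 and 155 CPM and SIX5 at 20.6, 22.3 and 20.3 CPM were highest in DM2, with DM3 near DM1. The summed myotube markers were highest in DM3, at 6168 CPM, and the summed fibroblast markers were lowest there among DM samples, at 97693 CPM.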
